A study of Mus musculus with 8 samples.

Results

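The ETS factors are transcription factors that share a DNA-binding domain, and 10 of them were examined in articular chondrocytes exposed to an inflammatory cytokine. The 10 genes were *Elf3*, *Ehf*, *Ets1*, *Ets2*, *Etv1*, *Etv4*, *Etv5*, *Erg*, *Fli1* and *Elk3*. They were chosen by name, with earlier results of these data known. All 10 were found among the 54658 gene symbols of the count table. Of these 10, 9 passed the filter on low counts and were tested together with 14404 genes in all, and *Ehf* did not. After IL-1β, 5 of the 9 were higher (*Elf3*, *Etv1*, *Elk3*, *Ets2* and *Ets1*), *Erg* was lower, and *Etv4*, *Etv5* and *Fli1* did not pass the test.

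ETS proteins bind DNA through a winged helix domain that reads a short core, GGAA, and the letters around the core, partner proteins and phosphorylation set which member acts where. Several members end kinase pathways: ETS1, ETS2, the PEA3 group (ETV1, ETV4 and ETV5) and the ternary complex factors (ELK1, ELK3 and ELK4) are phosphorylated by MAP kinases such as ERK. In cartilage, ELF3 is known as a factor induced by inflammatory cytokines that raises catabolic genes, and ERG as a factor of the developing joint surface that favours the permanent articular over the maturing state.

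The samples were primary articular chondrocytes taken at the femoral head of wild-type mice 3 weeks of age and put in culture. In the IL-1β group, 4 samples received IL-1β at 1 ng/mL for 24 h, and the 4 samples of the other group received vehicle for the same time. IL-1β is a cytokine that activates NF-κB and MAP kinases and is used to model inflamed cartilage in culture. Total RNA was sequenced, and the total count per sample was 10992355 to 17104351 in the IL-1β group and 13970959 to 17456063 in the vehicle group. A count of 3, taken as the smallest abundance that can be shown, was 0.172 to 0.273 CPM (counts scaled to one common total per sample) at these totals. Such limits, and the interval given for *Ehf*, cover counting error alone, because copies made by PCR could not be told from separate molecules. The labels number 4 replicates in each group and do not say whether they came from separate mice or cultures, so the p-values measure the spread between these samples, which may be technical. In bulk RNA, fewer cells of a type and less RNA per cell cannot be told apart.

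The cells carried the markers of chondrocytes. The summed level of 10 chondrocyte markers was 14800 to 15400 CPM in the vehicle samples and 3720 to 4090 CPM after IL-1β, and 10 of the 10 fell more than 2-fold. Endothelial and epithelial markers were scarce, while the sums for fibroblast and osteoblast markers were larger. The 10 endothelial markers summed to 1.79 to 2.89 CPM in the vehicle samples and 2.13 to 2.97 CPM after IL-1β, with *Cldn5* at 0 and *Cdh5*, *Tie1* and *Emcn* at 3 reads or fewer in each of the 8 samples. *Egfl7* had 9 to 17 reads per sample and *Tek* 2 to 10. The 10 epithelial markers summed to 3.69 to 5.85 CPM and 2.88 to 4.76 CPM, respectively, with *Cldn4* at 0 and *Krt8*, *Krt19*, *Krt5*, *Krt14* and *Cdh1* at 3 reads or fewer. Other epithelial markers had reads in every sample: *Esrp1* 15 to 41, *Krt18* 8 to 31 and *Epcam* 7 to 23. The 10 haematopoietic markers summed to 13.2 to 13.8 CPM and 16.6 to 19.9 CPM, of which most was *Cd68*, while *Cd3e* was at 0 and *Adgre1*, *Itgam* and *S100a8* had 3 reads or fewer. These summed ranges did not overlap. *Lyz2* had 16 to 33 reads per sample, *Csf1r* 7 to 19 and *Laptm5* 3 to 22. The 8 fibroblast markers summed to 165 to 173 CPM and 159 to 175 CPM, and the 6 osteoblast markers to 126 to 136 CPM and 50.3 to 58.5 CPM.

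The RefSeq promoter sequences of the members are shown first, because the family's own core can be read in them. Of the 10 members, 6 had an entry, with 10 transcription starts in all (RefSeq, build GRCm38.p6), while *Ehf*, *Ets1*, *Etv4* and *Fli1* had none. The 250 bases before the start were searched, and they are given for *Etv1* (first of 2 starts, chr12:38779832-38780081, plus strand), *Elk3* (chr10:93311160-93311409, minus strand) and *Erg* (first of 3 starts, chr16:95586594-95586843, minus strand). For *Elf3* (window chr1:135258473-135258722, minus strand) the 154 bases at chr1:135258569-135258722 are given, since the other 96 lie in an exon of the gene as GENCODE annotates it. *Elf3*, *Etv1* and *Elk3* are the members with the largest rises among those tested, and *Erg* is the member that fell. They run from 5′ to 3′ on the gene's strand, and capitals mark the ETS core GGAA, read as TTCC where it lies on the opposite strand, and 1 match to the NF-κB consensus in *Elf3*. The *Etv1* window lies wholly inside the annotated gene, in an intron, while those of *Elk3* and *Erg* lie outside theirs. Of the 10 windows, 6 lay wholly inside the annotated gene, the *Ets2* window among them, and 2 partly.
Elf3: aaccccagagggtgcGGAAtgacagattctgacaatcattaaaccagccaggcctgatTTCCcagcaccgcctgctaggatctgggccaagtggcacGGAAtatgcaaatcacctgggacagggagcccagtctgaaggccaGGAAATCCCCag
Etv1: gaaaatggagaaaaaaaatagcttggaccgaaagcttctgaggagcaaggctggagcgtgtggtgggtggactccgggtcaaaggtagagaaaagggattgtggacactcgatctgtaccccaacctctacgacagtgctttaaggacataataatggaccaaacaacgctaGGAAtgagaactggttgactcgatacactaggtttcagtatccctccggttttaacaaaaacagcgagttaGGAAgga
Elk3: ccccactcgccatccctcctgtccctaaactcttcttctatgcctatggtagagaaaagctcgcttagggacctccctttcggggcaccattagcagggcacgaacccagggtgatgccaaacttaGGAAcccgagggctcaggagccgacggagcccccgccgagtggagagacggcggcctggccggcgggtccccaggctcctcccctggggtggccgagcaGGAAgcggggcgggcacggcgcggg
Erg: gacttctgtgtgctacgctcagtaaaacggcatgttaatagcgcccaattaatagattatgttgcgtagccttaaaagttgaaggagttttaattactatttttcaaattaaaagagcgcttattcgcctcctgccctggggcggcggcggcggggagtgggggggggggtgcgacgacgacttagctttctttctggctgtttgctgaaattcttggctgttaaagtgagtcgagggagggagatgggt

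The *Elf3* window held 4 GGAA cores, that of *Etv1* 2, that of *Elk3* 2 and that of *Erg* 0. The other 2 starts of *Erg* had 4 and 2, the second start of *Etv1* had 1, *Ets2* had 1, and the 2 starts of *Etv5* had 0 and 4. Of 32851 promoter windows of this length, 93.4% held at least 1 GGAA core on either strand, with a median of 3, and 33.4% held 4 or more. A core is thus common in promoters. The NF-κB consensus in *Elf3* was read on the opposite strand, 99 to 108 bases before the start, and its letters include the last GGAA core of the window. It was found in 1 of the 10 member windows and in 3.9% of all windows. The AP-1 motif TGANTCA was in 0 of the 10 member windows and in 6.75% of all windows. These matches describe letters only and say nothing about binding in these cells.

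The members differed widely in depth and are described by subfamily. ELF3 and EHF belong to the epithelium-specific ETS factors. *Elf3* (ENSMUSG00000003051.13, GRCm38 chr1:135253575-135258568, minus strand) had 3.24, 1.95, 2.67 and 2.84 CPM in IL-1β replicates 1 to 4 and 1.56, 1.56, 0.571 and 0.789 CPM in vehicle replicates 1 to 4. The lowest IL-1β sample stood above the highest vehicle sample, and the vehicle samples fell into a higher and a lower pair. The means were 2.68 ± 0.541 CPM after IL-1β and 1.12 ± 0.515 CPM with vehicle (SD, n = 4 each). *Elf3* rose 2.29-fold (log2 fold change 1.20, SE 0.25, adjusted p = 0.000276, edgeR). These values rest on 27 to 45 reads per sample after IL-1β and on 8 to 27 reads with vehicle. With single samples left out the log2 fold change ranged from 1.0 to 1.39. It was lowest without vehicle replicate 3, which had 8 reads, and then lay at the 2-fold threshold. The counting's use of strand is not given in the sources used here, and 7.31% of the exon bases of *Elf3* are shared with *Gm26642* on the opposite strand, so reads in that stretch could come from either gene if strand was not used.

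EHF, the close relative of ELF3, is best known from epithelia. *Ehf* (ENSMUSG00000012350.15, chr2:103263433-103303278, minus strand) was counted 18, 12, 17 and 12 times in the IL-1β samples and 3, 0, 1 and 1 times in the vehicle samples. The groups did not overlap, and the 4 vehicle samples were at or under the floor of 3 counts. The mean levels were 1.09 ± 0.364 CPM and 0.0775 ± 0.0715 CPM (SD, n = 4 each). Summed over each group there were 59 and 5 reads, a depth-scaled ratio of 13.5 with an exact 95% interval of 5.46 to 43.0 that covers counting error only. *Ehf* failed the filter on low counts and was not among the 9 members tested. An exact permutation test of its CPM gave p = 0.0286, two-sided, which is the smallest that 4 against 4 samples allow, and edgeR without the filter gave an adjusted p of 1.2e-10. That fit also gave smaller adjusted p-values than the main fit for members that passed in both (*Elk3*, 1.4e-20 against 1.17e-09, edgeR). The value for *Ehf* is therefore not comparable with those of the tested members. The epithelial markers given above were not higher after IL-1β in their summed range.

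ETS1 and ETS2 are the founding members of the family and respond to ERK by phosphorylation of an N-terminal threonine. *Ets1* (ENSMUSG00000032035.15, chr9:32636221-32757820, plus strand) had 130, 130, 128 and 126 CPM after IL-1β and 108, 112, 109 and 114 CPM with vehicle. All of its IL-1β samples were above its vehicle samples, and the spread within a group was small. From 111 ± 2.58 to 129 ± 1.74 CPM (SD, n = 4 each) it rose 1.16-fold (log2 fold change 0.22, SE 0.0317, adjusted p = 1.95e-06, edgeR). *Ets2* (ENSMUSG00000022895.16, chr16:95702075-95721051, plus strand) had 199, 198, 202 and 190 CPM after IL-1β and 155, 159, 153 and 154 CPM with vehicle. Again the groups did not overlap. *Ets2* rose 1.27-fold, from 155 ± 2.54 to 197 ± 4.82 CPM (SD, n = 4 each; log2 fold change 0.35, SE 0.0301, adjusted p = 1.04e-10, edgeR).

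The PEA3 group holds *Etv1*, *Etv4* and *Etv5*, which in many tissues are expressed downstream of FGF and ERK signalling. *Etv1* (ENSMUSG00000004151.17, chr12:38779380-38870484, plus strand) had 4.78, 3.75, 5.29 and 4.68 CPM after IL-1β and 2.02, 2.6, 2.42 and 2.1 CPM with vehicle, from 32 to 89 reads per sample. Every IL-1β sample was above every vehicle sample. The mean went from 2.29 ± 0.272 to 4.62 ± 0.64 CPM (SD, n = 4 each), a rise of 2.03-fold (log2 fold change 1.02, SE 0.16, adjusted p = 5.97e-06, edgeR). That value lies close to the 2-fold threshold, and it ranged from 0.94 to 1.11 when single samples were left out.

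*Etv4* (ENSMUSG00000017724.14, chr11:101769742-101785371, minus strand) had 2.97, 4.11, 3.09 and 2.62 CPM after IL-1β and 2.37, 2.48, 3.21 and 1.51 CPM with vehicle. The groups overlapped through vehicle replicate 3, which lay above 3 of the IL-1β samples. The log2 fold change was 0.43 (SE 0.197, 95% interval 0.039 to 0.81), with an adjusted p of 0.0884 by edgeR, so *Etv4* did not pass. It passed without IL-1β replicate 4 (log2 fold change 0.51, adjusted p = 0.0489) and without vehicle replicate 3 (log2 fold change 0.58, adjusted p = 0.0301). *Etv5* (ENSMUSG00000013089.15, chr16:22381309-22439719, minus strand) had 32.1, 30.9, 33.5 and 35.5 CPM after IL-1β and 33.5, 28.8, 34.6 and 29.4 CPM with vehicle. Its groups overlapped over most of their range. The log2 fold change was 0.067 (SE 0.0605, adjusted p = 0.415, edgeR), and its 95% interval of -0.051 to 0.19 covers small changes in both directions.

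ERG and FLI1 form a subfamily that is best known from endothelium and blood and that also acts in the skeleton. *Erg* (ENSMUSG00000040732.20, chr16:95359169-95586593, minus strand) had 8.38, 9.23, 8.49 and 8.72 CPM after IL-1β and 12.6, 12.2, 12.8 and 12.0 CPM with vehicle. It was lower in each of the IL-1β samples than in any vehicle sample. The mean went from 12.4 ± 0.352 to 8.71 ± 0.377 CPM (SD, n = 4 each), a log2 fold change of -0.51 (SE 0.0891, adjusted p = 2.92e-05, edgeR) or a change of -29.7%. The counts behind it were 93 to 143 reads with IL-1β and 179 to 219 with vehicle, and with single samples left out the log2 fold change stayed between -0.54 and -0.49. *Erg* moved in the same direction as the 10 chondrocyte markers, and their part in its fall was not tested. The summed ranges of the endothelial markers given above overlapped between the groups.

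*Fli1* (ENSMUSG00000016087.13, chr9:32422204-32542861, minus strand) had 6.67, 5.77, 7.13 and 5.39 CPM after IL-1β and 8.19, 7.57, 5.71 and 6.9 CPM with vehicle. The groups overlapped, with vehicle replicates 3 and 4 inside the range of the IL-1β samples. Its log2 fold change of -0.19 (SE 0.125, 95% interval -0.44 to 0.053, adjusted p = 0.241, edgeR) did not pass the test.

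ELK3, also called Net, is a ternary complex factor that binds next to SRF and represses its targets until ERK phosphorylates it. *Elk3* (ENSMUSG00000008398.15, chr10:93247414-93311135, minus strand) had 65.6, 67.5, 70.4 and 61.7 CPM after IL-1β and 47.4, 49.3, 49.6 and 48.5 CPM with vehicle. The 2 ranges were well apart. *Elk3* rose 1.36-fold, from 48.7 ± 0.993 to 66.3 ± 3.64 CPM (SD, n = 4 each; log2 fold change 0.45, SE 0.0435, adjusted p = 1.17e-09, edgeR). It shares 6.95% of its exon bases with *Cdk17* on the opposite strand, with the same limit.

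**Figure D1:**
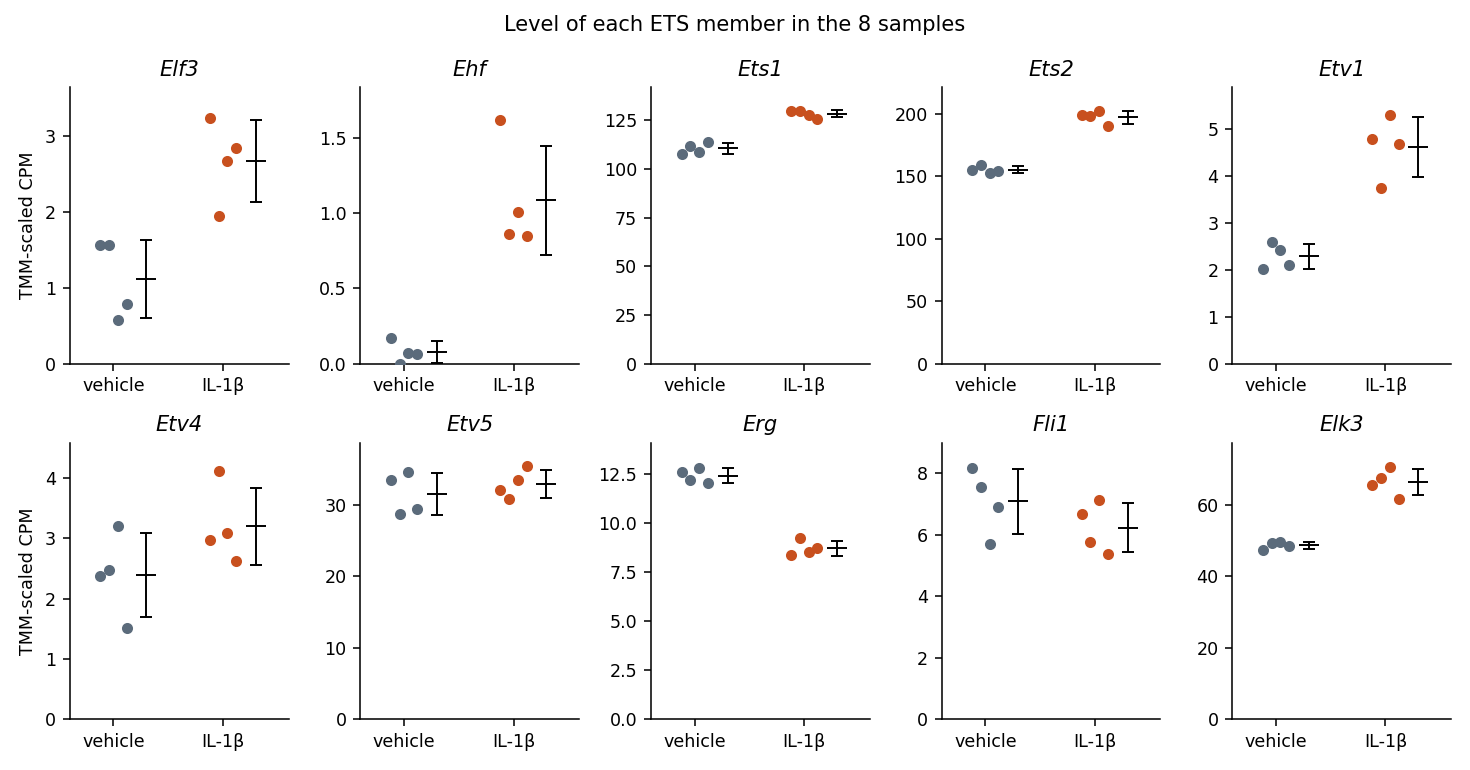
CPM of each of the 10 members (vertical axes, linear and starting at 0, each with its own scale) in the 4 vehicle samples (grey) and the 4 IL-1β samples (orange), with the mean and SD in black. For *Elf3*, *Ehf*, *Ets1*, *Ets2*, *Etv1* and *Elk3* the IL-1β points lie above the vehicle points, for *Erg* they lie below, and for *Etv4*, *Etv5* and *Fli1* the groups overlap.

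Counted over the 9 members tested, 6 changed (66.7%), against 40.2% of all genes tested. Because the members were chosen with earlier results of these data known, the shares given here describe them and do not test the family. Of the members, 5 were higher, where the share over all genes was 20.4%, and 1 was lower, where it was 19.8%. Of the 9, only *Elf3* and *Etv1* also went beyond a 2-fold change, both upward, and the count was 1 without IL-1β replicate 3, without vehicle replicate 1 or without vehicle replicate 4. In each of these *Etv1* fell short of the threshold. Over all genes, 5.21% passed both thresholds, 2.86% upward and 2.35% downward. The 2 groups did not overlap for 6 of the 9 members, against 36.8% of all genes. The median log2 fold change of the 9 was 0.35, beside -0.0012 over all genes, and the median of the absolute values was 0.43, beside 0.16.

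The rest of the family gave a background for these values. The mouse table held 27 ETS genes, the 10 members and 17 others, of which 10 of the others passed the filter. Among these 10, 3 were higher, 1 was lower and 6 did not pass, and their median log2 fold change was -0.012. The share that changed was 40.0%, beside 40.2% of all genes tested. *Elf1*, *Elf4* and *Etv3* were the ones that rose. For *Elf4*, a relative of *Elf1* that acts in lymphocytes, the level went from 63.1 ± 1.32 to 70.9 ± 1.63 CPM (SD, n = 4 each), a log2 fold change of 0.17 (adjusted p = 0.000749, edgeR). *Etv3*, a repressor, went from 29.5 ± 2.14 to 35.1 ± 0.951 CPM (SD, n = 4 each; log2 fold change 0.25, adjusted p = 0.000365, edgeR). *Elf1* had overlapping groups and a log2 fold change of 0.21 (adjusted p = 0.0222, edgeR), and it lost its call with DESeq2 (adjusted p = 0.0507), with 1 RUVs factor, a correction for unwanted variation, as a covariate (0.0891) and without IL-1β replicate 1 (0.0914), IL-1β replicate 3 (0.0524) or vehicle replicate 1 (0.1).

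*Erf*, a repressor of ETS targets that ERK drives out of the nucleus, was the other family gene that fell beside *Erg*. It had 52.0, 52.9, 60.3 and 63.9 CPM after IL-1β and 80.8, 78.5, 75.1 and 76.3 CPM with vehicle, with no overlap. The mean went from 77.7 ± 2.53 to 57.3 ± 5.79 CPM (SD, n = 4 each; log2 fold change -0.43, SE 0.0505, adjusted p = 3.74e-08, edgeR). The 6 genes that did not pass were *Elf2* (log2 fold change 0.083), *Elk1* (-0.0067), *Elk4* (-0.018), *Etv6* (-0.12), *Fev* (-0.50) and *Gabpa* (-0.049). The other ternary complex factors, *Elk1* and *Elk4*, had adjusted p-values of 0.945 and 0.696 by edgeR, beside the rise of *Elk3*. Of the genes that failed the filter, *Elf5*, *Spdef*, *Spi1* and *Spib* were each below 0.3 CPM in every sample, and *Etv2*, *Etv3l* and *Spic* had 0 reads in all 8.

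**Figure D2:**
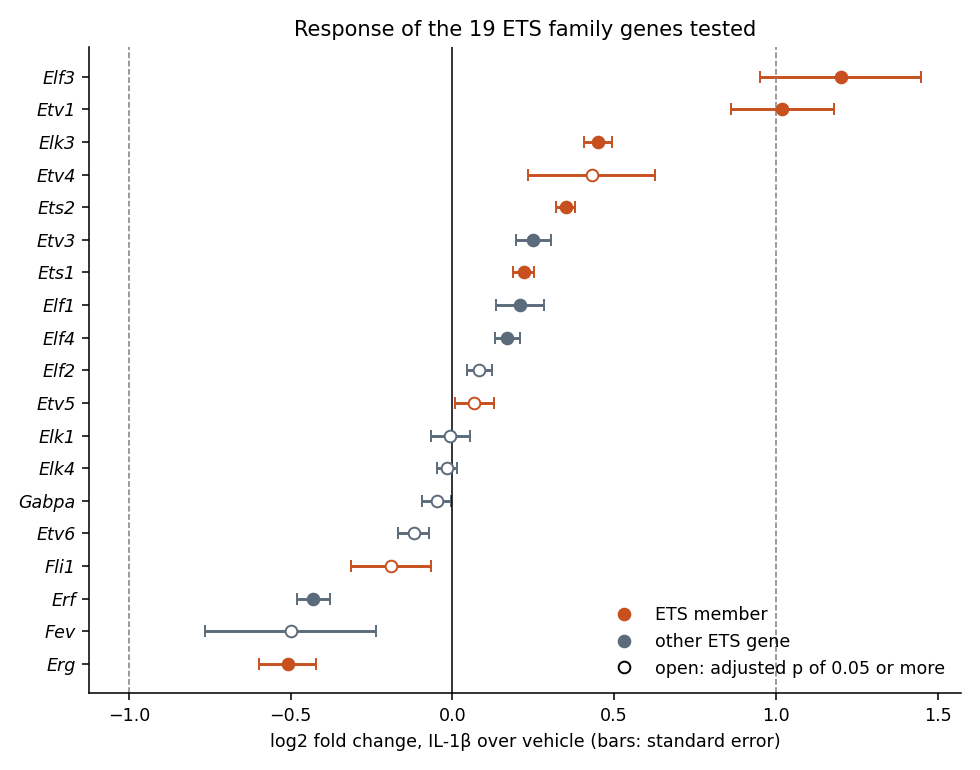
Log2 fold change of IL-1β over vehicle with its standard error (horizontal axis) for the 19 ETS genes that passed the filter, members in orange and other family genes in grey, filled where the adjusted p was under 0.05. Dashed lines mark a 2-fold change, and only *Elf3* (1.20) and *Etv1* (1.02) lie beyond them, while *Erg* (-0.51) has the lowest value.

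To compare genes with each other, counts were divided by the gene length listed beside them and scaled to the same total in every sample (TPM). For the members this length is that of all annotated exons together, not of the transcripts expressed, so the order between genes depends on it. On this length-scaled level the vehicle order was *Ets2* (75.0 ± 2.62 TPM, SD, n = 4 as for the next values), *Ets1* (36.5 ± 0.414), *Elk3* (30.0 ± 0.987), *Etv5* (21.6 ± 2.37), *Erg* (10.0 ± 0.522), *Fli1* (5.70 ± 0.917), *Etv4* (2.17 ± 0.663), *Elf3* (1.42 ± 0.674), *Etv1* (0.482 ± 0.0618) and *Ehf* (0.0392 ± 0.0368). Only *Etv4* and *Elf3* overlapped their neighbour in that order. After IL-1β, *Ets2* was again first at 92.5 ± 3.93 TPM, and *Ets1* (41.1 ± 1.73 TPM) and *Elk3* (39.5 ± 2.38 TPM), which had been separate, overlapped. *Elf3*, at 3.27 ± 0.701 TPM, stood above *Etv4* at 2.80 ± 0.59 TPM and below *Fli1* at 4.85 ± 0.644 TPM, and its range overlapped both. *Etv1* (0.941 ± 0.122 TPM) and *Ehf* (0.531 ± 0.193 TPM) overlapped as well, and *Etv5* (21.8 ± 0.943 TPM) and *Erg* (6.81 ± 0.354 TPM) stood apart from their neighbours. *Elf3* and *Etv1*, the tested members past both thresholds, and *Ehf*, which was not tested, were thus among the 4 lowest of the 10 in both groups.

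The summed level of the 27 ETS genes was 425 ± 12.1 TPM with vehicle and 436 ± 11.8 TPM after IL-1β (SD, n = 4 each), and these ranges overlapped (407 to 433 TPM and 423 to 451 TPM). The makeup of that sum differed. The 10 members made up 43.1% ± 0.425 of it with vehicle and 49.1% ± 0.652 after IL-1β (SD, n = 4 each), with ranges of 42.5% to 43.5% and 48.1% to 49.5%. *Ets2* went from 17.7% to 21.2% of the family sum, *Elk3* from 7.06% to 9.05%, *Ets1* from 8.6% to 9.43% and *Erg* from 2.36% to 1.56%. *Etv5* was at 5.07% and 5.0%. Outside the members, *Erf* went from 14.2% to 9.87% and *Elk4* from 15.2% to 14.2%. These shares were compared by their ranges, with no test.

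**Figure D3:**
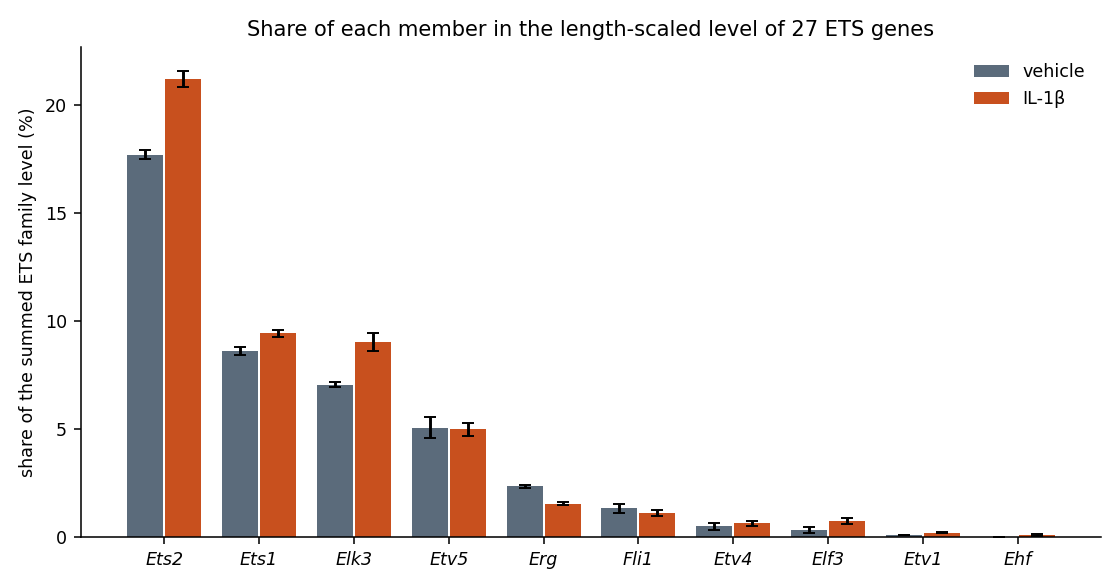
Share of each member in the summed length-scaled level of 27 ETS genes (vertical axis, percent) with vehicle (grey) and IL-1β (orange), as the mean of 4 samples with the SD. *Ets2* has the largest share of the 10 in both groups (17.7% and 21.2%), the bars of *Erg* go from 2.36% to 1.56%, and those of *Elf3*, *Etv1* and *Ehf* stay under 1%.

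Some members are close relatives or neighbours on a chromosome, and for them the difference in response was tested directly. *Erg* and *Ets2* lie on chromosome 16 with 115.0 kb and no annotated gene between them, and *Fli1* and *Ets1* lie on chromosome 9 with 93.4 kb and 2 annotated genes between them. Both pairs are arranged head to head, with the first gene on the minus and the second on the plus strand. The log2 ratio of 1 gene to the other was computed in every sample and compared between the groups by an exact permutation test, two-sided, for the 6 pairs with both genes tested, which leaves out *Elf3* and *Ehf*.

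The ratio of *Erg* to *Ets2* was -4.49, -4.35, -4.49 and -4.37 on the log2 scale after IL-1β and -3.56, -3.65, -3.53 and -3.62 with vehicle. These neighbours thus moved in opposite directions, and the ratio differed by -0.84 ± 0.0457 (SE) with no overlap between the groups. For *Etv1* over *Etv5* the log2 ratio was -2.63, -2.88, -2.55 and -2.8 after IL-1β and -3.76, -3.24, -3.58 and -3.52 with vehicle, a difference of 0.81 ± 0.131 (SE), again with no overlap. For *Ets1* over *Ets2* the difference was -0.13 ± 0.0234 (SE), also with no overlap, since *Ets2* had the larger rise. Each of these 3 gave p = 0.0286 in the exact permutation test, the smallest that 4 against 4 samples allow, and 0.0571 after Benjamini-Hochberg adjustment over the 6 pairs.

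The other 3 pairs overlapped. The difference in log2 ratio was 0.38 ± 0.135 (SE) for *Ets1* over *Fli1* (exact permutation p = 0.0571, adjusted 0.0857), -0.32 ± 0.155 for *Erg* over *Fli1* (exact permutation p = 0.114, adjusted 0.137) and 0.31 ± 0.217 for *Etv4* over *Etv5* (exact permutation p = 0.171, adjusted 0.171). After adjustment 0 of the 6 pairs passed, and 3 of the 6 were under 0.05 before it. *Erg* passed and *Fli1* did not in the fit across all genes, but their responses were thus not shown to differ.

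**Figure D4:**
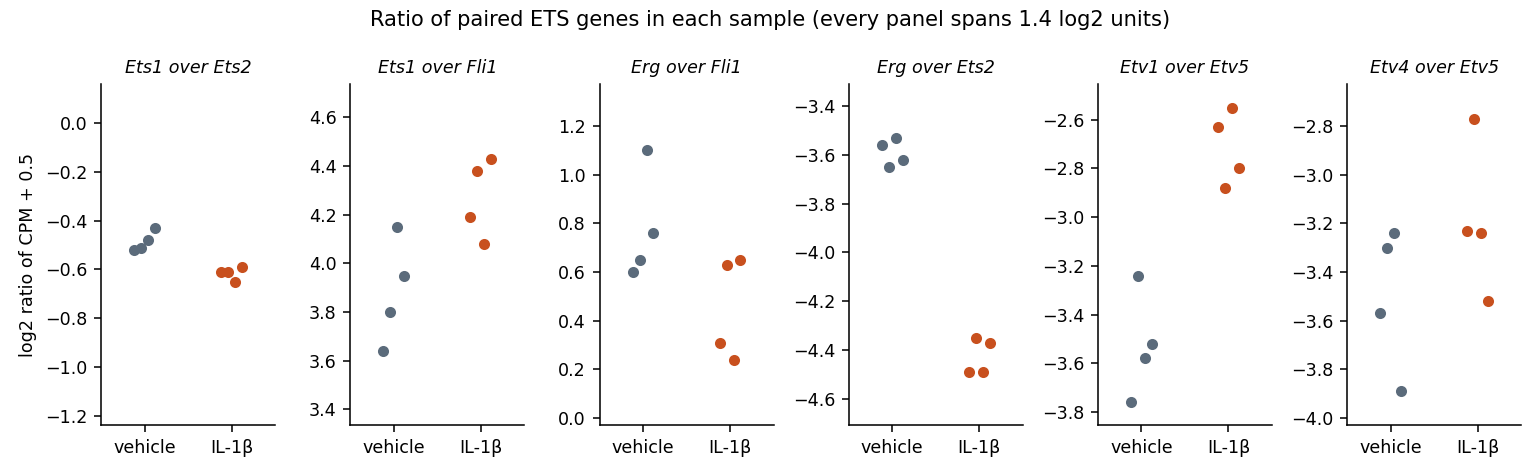
Log2 ratio of CPM (with 0.5 added) between 2 ETS genes in each vehicle (grey) and IL-1β (orange) sample, for the 6 pairs tested, with every panel spanning the same height of 1.4 log2 units. The groups are apart for *Ets1* over *Ets2*, *Erg* over *Ets2* (difference -0.84) and *Etv1* over *Etv5* (difference 0.81), and overlap in the other 3 panels.

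Genes that act with these factors were taken from lists, and are given by role. Genes of these lists that did not pass both thresholds, and *Col2a1*, are named here after their values were seen. ERK signalling induces feedback inhibitors that are often expressed together with *Etv4* and *Etv5*. Of 9 such genes tested, 4 were higher and 1 was lower, and the median log2 fold change was 0.048, near that of all genes. The 3 Spred genes, inhibitors of the Ras and Raf step, were higher (*Spred1* 0.23, *Spred2* 0.74 and *Spred3* 0.90 on the log2 scale), as was the phosphatase gene *Dusp4* (0.69, with an adjusted p of 0.0554 without IL-1β replicate 3). *Spry4* was lower (log2 fold change -0.54), and *Dusp6* (-0.067, adjusted p = 0.401, edgeR) and *Spry2* (0.048, adjusted p = 0.526) did not pass. *Spry1* failed the filter, with 2 to 11 reads after IL-1β and 17 to 22 with vehicle. Its level was 0.455 ± 0.327 CPM against 1.28 ± 0.237 CPM (SD, n = 4 each) with no overlap, and edgeR without the filter gave a log2 fold change of -1.5 (adjusted p = 0.000148). That p-value has the limit given for *Ehf*.

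Immediate early genes are among the targets of ternary complex factors. They were measured here only after 24 h of IL-1β, so an early response was not measured. Of 10 genes tested, SRF and its partners included, 1 was higher and 6 were lower, with a median log2 fold change of -0.22. *Fos*, the classic target, fell from 24.7 ± 0.733 to 10.8 ± 0.659 CPM (SD, n = 4 each; log2 fold change -1.19, adjusted p = 3.52e-14, edgeR) and was the 1 gene of the list past both thresholds. *Egr1* (-0.36), *Egr2* (-0.87), *Fosb* (-0.93), *Srf* (-0.20) and *Ier2* (-0.15) were also lower on the log2 scale, and *Junb* was higher (0.49). *Fosb* had 4 to 26 reads per sample after IL-1β and 21 to 36 with vehicle, with overlapping groups. It was above 1 CPM in every vehicle sample, but after IL-1β only in replicate 3. *Egr2* had 10 to 23 reads after IL-1β and 29 to 37 with vehicle. *Srf* and *Ier2* lost their call without IL-1β replicate 1 (adjusted p = 0.0692 and 0.119, edgeR) or vehicle replicate 2 (0.0639 and 0.144). With 1 RUVs factor both also lost it, with log2 fold changes of -0.11 (adjusted p = 0.0995) and -0.096 (0.139).

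Genes tied to ELF3 in chondrocytes are mostly inflammatory and catabolic. Of 7 tested, 5 were higher and 1 was lower, with a median log2 fold change of 2.21. Over all genes 20.4% were higher and 19.8% lower. The list was chosen with earlier results of these data known, and a part of *Elf3* in these changes was not tested. *Nos2*, the inducible nitric oxide synthase, went from 1.57 ± 0.259 to 67.2 ± 4.52 CPM (SD, n = 4 each; log2 fold change 5.40, adjusted p = 1.54e-27, edgeR). *Lcn2*, which encodes the iron-binding lipocalin 2, went from 285 ± 9.82 to 8080 ± 252 CPM (SD, n = 4 each; log2 fold change 4.83, adjusted p = 4.83e-37, edgeR). The collagenase gene *Mmp13* (log2 fold change 2.71) and the angiopoietin gene *Angpt1* (2.21, the median given above) were also past both thresholds. *Angpt1* had 25 to 40 reads per sample after IL-1β and 6 to 12 with vehicle. It was under 1 CPM in every vehicle sample, so only its IL-1β samples took it past the filter. *Ptgs2* had a log2 fold change of -0.07 and did not pass (adjusted p = 0.0793, edgeR). The 1 gene that fell was *Col2a1*, the chondrocyte collagen, which ELF3 is known to repress. It is also among the 10 chondrocyte markers, all of which fell more than 2-fold.

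Genes tied to ERG in articular cartilage were mostly higher, while *Erg* was lower. Of 5 tested, 4 were higher and 1 was lower, with a median log2 fold change of 1.23. *Prg4*, which encodes the joint lubricant lubricin, went from 856 ± 21.7 to 2010 ± 47.1 CPM (SD, n = 4 each; log2 fold change 1.23, adjusted p = 4.79e-24, edgeR). *Gdf5*, a joint growth factor gene, rose by 2.23 and the hyaluronan receptor gene *Cd44* by 1.51 on the log2 scale, *Wnt9a* was higher by 0.67, and the matrix gene *Tnc* had a log2 fold change of -1.19. *Wnt9a* lost its call with DESeq2 (adjusted p = 0.0778), with no filter on low counts (0.0562) and without IL-1β replicate 4 (0.113), vehicle replicate 2 (0.0554) or vehicle replicate 3 (0.0836). *Pthlh* failed the filter, with 0.24 ± 0.0814 CPM after IL-1β and 0.512 ± 0.0989 CPM with vehicle (SD, n = 4 each), and edgeR without the filter gave an adjusted p of 0.125.

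RUNX factors bind DNA together with ETS1. *Runx1* rose (log2 fold change 0.87), while *Runx2* (-0.52), *Runx3* (-0.50) and their common partner *Cbfb* (-0.42) fell, so that 4 of 4 passed, with a median log2 fold change of -0.46. Of 9 partners and corepressors of ETS factors, 4 were higher (*Tle3*, *Ctbp1*, *Ctbp2* and *Sin3a*, by 0.14 to 0.17 on the log2 scale), *Tle1* was lower (-0.14) and 4 did not pass, with a median log2 fold change of 0.14. Leaving out 1 sample ended the call of *Ctbp2* (adjusted p = 0.0814 without IL-1β replicate 3 and 0.08 without vehicle replicate 1), *Sin3a* (0.0565 without vehicle replicate 2) and *Tle1* (0.0508 without vehicle replicate 4, and 0.0635 with DESeq2 and all samples). For all of these lists the share over all genes to read them against is 20.4% higher and 19.8% lower. The lists were chosen with earlier results of these data known, and a part of the ETS factors in these changes was not tested.

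**Figure D5:**
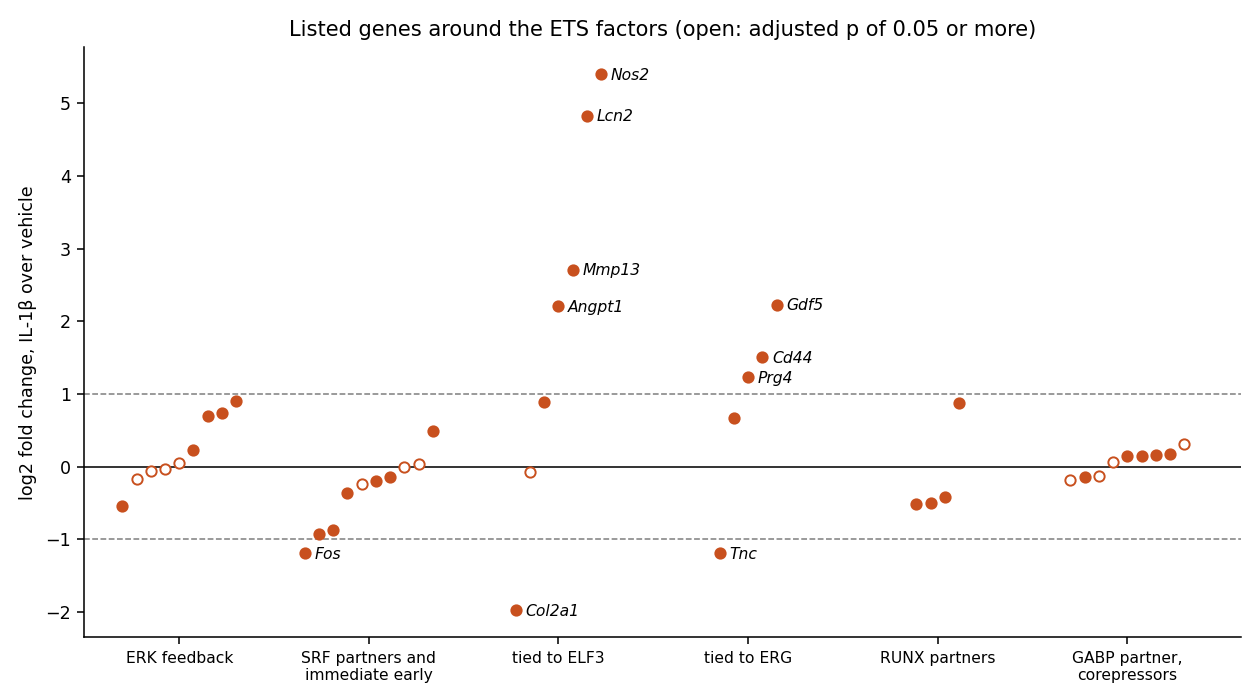
Log2 fold change of IL-1β over vehicle (vertical axis) for the tested genes of 6 lists around the ETS factors, 1 point per gene, filled where the adjusted p was under 0.05, with dashed lines at a 2-fold change. *Nos2* (5.40) and *Lcn2* (4.83) are the highest and *Col2a1* the lowest, while the corepressors lie near 0.

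The genes whose levels followed *Elf3* and *Erg* most closely over the 8 samples were named by Pearson's r of log2(CPM + 0.5), as a description. For *Elf3* they were *Gm5865* and *Fzd4* (r = 0.976 each), *Emc3* (0.975), *Ash2l* (0.971) and *Mrpl40* (0.97), and 152 genes (1.06% of those tested) had r above 0.9. For *Erg* they were *Haus8* (r = 0.995) and *Tspyl4*, *Wnk4*, *Meis2* and *Gm37899* (0.994 each), and 1369 genes (9.5%) had r above 0.9. The 8 points share 1 treatment difference, which alone gives a high r to genes that differ between the groups. *Ash2l* and *Mrpl40*, however, did not pass the test (log2 fold change 0.1 and 0.17, adjusted p = 0.0813 and 0.0569, edgeR). The genes named had the highest r among 14404 genes, and no p was computed for r. Within a group *Elf3*, with 8 to 45 reads per sample, varied more relative to its mean than *Erg*, with 93 to 219 reads.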

How the data were processed

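RNA-Seq of 4 IL-1β and 4 vehicle samples was used. Per the methods and the submitters' processing notes, the authors trimmed reads with cutadapt and aligned them to mm10 with STAR. For STAR the notes give 2.4.2a and the methods another version. The authors counted with featureCounts and GENCODE vM20. They deposited whole-number counts per gene, and whether these precede the batch correction by RUVseq in the methods is not given in the sources used here. The authors deposited gene lengths in bases beside them (unit: other), used here for TPM only.

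Tests covered the genes that exceeded 1 CPM in 4 or more samples, with edgeR 4.0.16 (limma 3.58.1, R 4.3.3; TMM, quasi-likelihood, treatment as the only term). Changed means a Benjamini-Hochberg adjusted p under 0.05 over all genes tested, and both thresholds add a log2 fold change beyond 1 in either direction. CPM values are scaled by TMM. Pairs used log2(CPM + 0.5). Code was tested on simulated data. Alternatives included DESeq2 1.42.0, other scalings and filters, 1 RUVs factor, a replicate block and leaving out each sample. Python 3.11.15 served for the rest (scipy 1.17.1, numpy 2.4.6, pandas 2.3.3, matplotlib 3.10.9).

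The members and lists were chosen with earlier results of these data known. The rule for named genes took all members, the other ETS genes that passed the filter, from each list up to 4 genes past both thresholds by size of change, and the 5 genes most like *Elf3* and *Erg*. ETS genes that failed the filter, other list genes and marker genes are named beside it, chosen after their values were seen. Positions are from GENCODE vM21 (GRCm38), whose exon lengths equal the deposited lengths for 10 of 10 members.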

Additional observations from a re-analysis of the deposited data

How the results depend on the processing

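The number of members that changed was 6, and it was 5 to 7 over 15 alternatives, with 7 without the filter on low counts, where *Ehf* was tested, and 5 with CPM above 1 in all 8 samples, where *Elf3* was not. Over the ETS family it was 10 and ranged from 9 to 11. The number past both thresholds was 2. It was 1 with CPM above 1 in all 8 samples and 3 without the filter. edgeR's glmTreat, which tests for a change beyond 2-fold, called 0, also 0 at an unadjusted p under 0.05, where the edgeR test and DESeq2 each gave 2. With single samples left out it ranged from 1 to 2, and it was 1 without IL-1β replicate 3, without vehicle replicate 1 or without vehicle replicate 4. Under the replicate block, with the replicate number as a term, 6 members changed and 2 passed both thresholds. The correlation of deviations between same-numbered samples was -0.0689 to 0.0353, and between other samples -0.0787 to 0.0846, so the numbers were not taken as pairs. No direction of a tested member reversed under any alternative run, and no scaling moved the median log2 fold change of all genes by as much as 0.1.

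Leaving out a sample in a pair comparison leaves 3 against 4, for which values only were computed. The differences for the 6 pairs kept their sign, and with a pseudocount of 1 or with total library size 3 of the 6 were under an unadjusted exact permutation p of 0.05 and 0 after adjustment. The limit of that adjustment given above holds here too. Depth limits *Elf3*, *Ehf*, *Etv1* and *Etv4*, which had at most 89 reads in any sample. No value was flagged among 20 member groups of 4 samples by Dixon's ratio, where about 1 flag would be expected.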
